A study of Rattus norvegicus with 12 samples.

Results

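The 9 genes described here make the 3 TGF-beta ligands (Tgfb1, Tgfb2, Tgfb3), the protease that cuts their precursors (Furin) and the proteins that hold them latent or are named with those proteins (Ltbp1, Ltbp2, Ltbp3, Ltbp4, Lrrc32). They were chosen by name from a count table of 24660 genes, all 9 were found in it, and all 9 were among the 14184 genes tested. RNA was sequenced from wild-type NRK-52E cells, a rat kidney line labelled as tubular epithelial cells, in 12 libraries, with 3 in each of 4 groups. Control cells have no agent named in the labels. TGF-beta1 cells were exposed to that cytokine during 24 h. The labels write its dose as 10 µg/ml, where ng/ml is the usual unit, so that the dose is uncertain. The remaining groups received TGF-beta1 in the same way and then extracellular vesicles (EVs) at 500000000 particles/ml for 48 h, either 2D-EVs from a conventional method or 3D-EVs described as efficiently produced, and are called 2D-EV and 3D-EV cells. All 4 groups are a single cell line, and nothing read here states which cells the EVs came from, the harvest time of the groups without EVs, or whether TGF-beta1 stayed on during the EV step. The EV comparisons therefore cannot be told apart from time after TGF-beta1.

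TGF-beta ligands are made as precursors. Furin cuts each precursor into a growth factor and a propeptide, the latency-associated peptide, which stays wrapped around the growth factor and keeps it inactive. LTBP1, LTBP3 and LTBP4 bind the propeptide through disulfide bonds and tether the complex to fibrillin and fibronectin in the matrix, while LTBP2 is a relative that does not bind it. LRRC32, also called GARP, holds latent TGF-beta on the surface of regulatory T cells, platelets and endothelial cells. Integrins of the alpha v class pull on the propeptides of TGF-beta1 and TGF-beta3 to free the ligand. In kidney tubules the pathway is known for driving matrix production and fibrosis. The counts measure the cells' own transcripts and not the protein added to the medium.

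Library totals ran from 32888125 to 39754319 counts, so that 1 count equalled between 0.0255 and 0.0305 CPM (TMM-scaled counts relative to library size). The mitochondrial share was 5.31 to 5.58%. Of 17 tubular epithelial markers, 16 were in the table, of which only Krt8, Ggt1, Cdh2 and Aqp1 averaged at least 1 CPM. Epcam, Pax2 and Umod held 0 counts in every library, Krt18 at most 5 and Cdh1 at most 30, so the label rests on a few markers. The summed level of the list was 1220 to 1249 CPM in control cells, 1533 to 1597 in TGF-beta1 cells, 1511 to 1545 in 2D-EV cells and 1497 to 1554 in 3D-EV cells. Krt8 (1007 to 1252 CPM over all libraries) and Ggt1 (159 to 320 CPM) held most of that sum. Fibroblast and pericyte markers (9 of 9 in the table) summed to 254 to 271 CPM in control cells. In TGF-beta1 cells they summed to 210 to 233 CPM and over the EV groups to 225 to 236 CPM. Of these markers, Col14a1 (121 to 206 CPM over all libraries), Postn (37.1 to 70.2 CPM), Pdgfrb and Cspg4 averaged at least 1 CPM. Dcn held at most 2 counts. Immune, regulatory T cell and platelet markers (12 of 12) summed to 4.35 to 6.07 CPM over all groups, with Ptprc, Itgam, C1qa, C1qb and Pf4 at 0 counts and Foxp3 at most 5. Endothelial markers (7 of 7) summed to 12.4 to 13.6 CPM in control cells and 15.2 to 17.5 in the groups given TGF-beta1, mostly Egfl7, with Emcn at 0 counts. Mesenchymal stromal markers (7 of 7) summed to 32.1 to 39.6 CPM in control and 23.9 to 30.2 in the other groups, and erythroid markers (2 of 4 in the table) to at most 0.642 CPM. Such sums follow the most abundant genes of a list and not the list as a set. In TGF-beta1 against control cells, 2 of 9 tested tubular markers rose and 1 fell (edgeR, adjusted p below 0.05). Of 5 tested fibroblast and pericyte markers 1 rose and 1 fell (median log2 fold change 0.18). Of 6 tested stromal markers 1 rose and 1 fell (median 0.31). Over all genes tested 11.8% rose and 10.2% fell. The part of these differences in the results was not tested.

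Across the 9 genes, TGF-beta1 cells differed from control cells in 8: 6 rose (Tgfb1, Tgfb2, Furin, Ltbp1, Ltbp2, Ltbp3), 2 fell (Tgfb3, Ltbp4) and Lrrc32 did not pass the test (edgeR quasi-likelihood test, Benjamini-Hochberg adjusted p below 0.05 over all genes tested). In the same comparison 22% of all genes tested passed, 11.8% upward and 10.2% downward. The median absolute log2 fold change was 0.39 over the 9 genes and 0.13 over all genes tested. At an unadjusted p below 0.05 the count was also 8, where 33% of all genes stood. The libraries of the groups did not overlap for 8 of the 9 genes, 6 higher and 2 lower, against 38% of all genes tested (19.1% higher and 18.9% lower). With 2D-EVs or 3D-EVs after TGF-beta1, these 8 genes also passed against control cells in the same directions, where 18.6% and 23% of all genes tested passed. Against TGF-beta1 cells 0 of the 9 passed, where 0.0282% and 0% of all genes did, so that this count is near the background. In bulk RNA, a change in the number of cells that make a transcript and a change in transcript per cell cannot be told apart.

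The sequences in front of a riser and a faller are shown because Ltbp1 and Ltbp4, which encode proteins of the same family, went opposite ways, and because Tgfb1 rose most of the 9. RefSeq's promoter table (build GRCr8) holds 7 of the 9 genes, and its windows of 250 bases before the annotated start were read 5′ to 3′ on the gene's strand. Motifs were counted over the whole window, also where it runs into the annotated gene (45 bases for Ltbp1, 15 for Ltbp4 and all 250 for Tgfb2, Tgfb3, Ltbp2 and Ltbp3), and the printed sequences leave those bases out. Capitals mark matches to any of 5 motifs searched on both strands. The 3 motifs TGANTCA (AP-1), CAGACA (Smad) and GTCTAGAC (Smad palindrome) matched in 0 of the 7 windows and in 6.36%, 16.9% and 0.186% of 27457 windows. The 2 motifs GGGCGG (GC box, in 32.4% of windows) and TGACGTCA (cyclic AMP response element, in 1.7%) were added after the windows were seen. Tgfb1 lies at chr1:90324062-90324311 (plus strand), Ltbp1 at chr6:26177347-26177551 (minus strand) and Ltbp4 at chr1:91759823-91760057 (minus strand).
Tgfb1: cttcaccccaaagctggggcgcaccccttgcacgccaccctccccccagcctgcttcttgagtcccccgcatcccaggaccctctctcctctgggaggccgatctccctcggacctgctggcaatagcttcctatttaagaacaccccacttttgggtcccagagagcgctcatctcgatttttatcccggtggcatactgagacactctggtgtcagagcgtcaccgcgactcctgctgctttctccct
Ltbp1: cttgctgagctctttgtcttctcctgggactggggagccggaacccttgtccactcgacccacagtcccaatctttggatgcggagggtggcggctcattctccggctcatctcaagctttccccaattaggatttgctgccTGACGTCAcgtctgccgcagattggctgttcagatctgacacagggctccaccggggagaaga
Ltbp4: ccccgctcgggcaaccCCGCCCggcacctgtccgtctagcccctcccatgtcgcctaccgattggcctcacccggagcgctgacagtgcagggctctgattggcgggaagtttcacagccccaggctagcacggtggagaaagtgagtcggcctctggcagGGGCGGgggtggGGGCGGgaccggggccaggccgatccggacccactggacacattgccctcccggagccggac
The Tgfb1 window held no match, the Ltbp1 window a cyclic AMP response element starting 108 bases before the start, and the Ltbp4 window 3 GC boxes. The windows of Tgfb2, Tgfb3, Ltbp2 and Ltbp3 lie inside longer annotated transcripts and are not printed. Their matches were a single GC box each in Ltbp2 and Ltbp3. A match describes letters only.

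Among the ligands, Tgfb1, the form most tied to fibrosis, rose with TGF-beta1. Its level was 119, 105 and 118 CPM in the control libraries and 186, 187 and 188 CPM in the TGF-beta1 libraries. Every TGF-beta1 library stood above every control library, and the rise was 1.64-fold (log2 fold change 0.71, SE 0.05, adjusted p = 7.82e-08). In 2D-EV cells it was 178, 165 and 178 CPM and in 3D-EV cells 182, 190.1 and 194 CPM. The 2D-EV libraries were all below the TGF-beta1 libraries and the 3D-EV libraries lay on both sides of them. Against TGF-beta1 cells neither group passed, with log2 fold changes of -0.11 (95% interval -0.20 to -0.01, adjusted p = 0.659) for 2D-EV cells and 0.01 (-0.09 to 0.11, adjusted p = 0.977) for 3D-EV cells. By mean level the groups were ordered control (114 CPM), 2D-EV (174), TGF-beta1 (187) and 3D-EV (189), and of the steps between neighbours only that up from control passed the test.

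Tgfb2, whose propeptide lacks the integrin-binding RGD site of the other ligands, rose less. Its control libraries held 114, 117 and 121 CPM and its TGF-beta1 libraries 145, 143 and 147 CPM. The groups did not overlap (log2 fold change 0.31, SE 0.04, adjusted p = 2.02e-05). The 2D-EV libraries held 141, 138 and 144 CPM and the 3D-EV libraries 159.9, 156 and 148 CPM. Every 3D-EV library was thus above every TGF-beta1 and every 2D-EV library. The difference of 3D-EV from TGF-beta1 cells was 0.09 on the log2 scale (95% interval 0.02 to 0.17, adjusted p = 0.621) and that from 2D-EV cells 0.13 (0.05 to 0.21, adjusted p = 0.598). Neither passed the test across all genes. The order of the means was control (117 CPM), 2D-EV (141), TGF-beta1 (145) and 3D-EV (155), with only the step up from control past the threshold. A snoRNA gene overlaps Tgfb2 in RefSeq.

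Tgfb3 went the other way. It stood at 577, 586 and 590 CPM in control libraries and at 444, 438 and 460 CPM in TGF-beta1 libraries. No TGF-beta1 library reached the lowest control library, and the fall was 0.39 on the log2 scale (fold 0.766, SE 0.03, adjusted p = 4.83e-07). With 2D-EVs the libraries held 452, 464 and 453 CPM and with 3D-EVs 470.1, 446 and 443 CPM. Both ranges overlapped that of TGF-beta1 cells. The differences from TGF-beta1 cells were 0.03 (95% interval -0.04 to 0.09) with 2D-EVs and 0.02 (-0.05 to 0.08) with 3D-EVs (adjusted p = 0.905 and 0.948), so any return toward the control level was at most 0.09 on the log2 scale by these intervals.

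**Figure D1:**
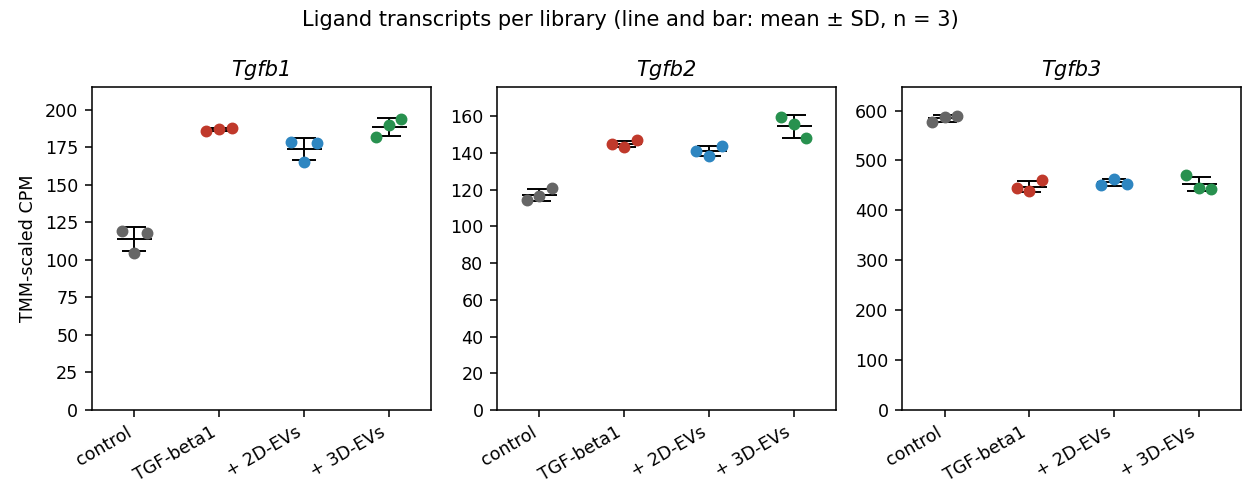
TMM-scaled CPM of the 3 ligands in each library (points, 3 per group), with the group mean and SD as line and bars. The x axis gives the groups, of which the EV groups also received TGF-beta1. Control libraries are lowest for Tgfb1 and Tgfb2 and highest for Tgfb3, while the groups given TGF-beta1 stand close together.

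The makeup of the ligand transcripts shifted accordingly. Within a library, the ratio of Tgfb1 to Tgfb3 counts was 0.195 ± 0.0148 (SD, n = 3) in control cells, 0.418 ± 0.00922 in TGF-beta1 cells, 0.381 ± 0.0213 in 2D-EV cells and 0.417 ± 0.0261 in 3D-EV cells. The ratio depends on the lengths of the transcripts, which were not used here, so only its change between groups can be read. Its highest control value was 0.207 and its lowest value in any other group 0.357. The ratio of Tgfb2 to Tgfb3 counts went from 0.201 ± 0.00381 in control cells to 0.324 ± 0.00441 in TGF-beta1 cells and stood at 0.309 ± 0.0101 in 2D-EV and 0.341 ± 0.0077 in 3D-EV cells. For Tgfb1 to Tgfb2 it was 0.972 ± 0.0741 in control and 1.29 ± 0.0132 in TGF-beta1 cells. The 3 ligands summed to 816 ± 11.2 CPM in control cells, 779 ± 13.9 in TGF-beta1 cells, 771 ± 3.88 in 2D-EV cells and 796 ± 14.2 in 3D-EV cells, a smaller relative difference than that of any ligand taken alone between control and TGF-beta1 cells.

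Furin, the convertase that cuts the precursors, rose along with Tgfb1. Its control libraries stood at 383, 393 and 395 CPM and its TGF-beta1 libraries at 521, 514 and 528 CPM. The gap between the groups was far wider than the spread within either (1.33-fold, log2 fold change 0.42, SE 0.03, adjusted p = 1.07e-07). In 2D-EV libraries it was 507, 503 and 496 CPM and in 3D-EV libraries 506, 483.5 and 483.0 CPM. All 6 EV libraries were below all 3 TGF-beta1 libraries. The log2 differences were -0.05 (95% interval -0.11 to 0.01, adjusted p = 0.764) with 2D-EVs and -0.09 (-0.15 to -0.03, adjusted p = 0.597) with 3D-EVs, and neither passed. Furin remained above control in 2D-EV cells (log2 fold change 0.36, adjusted p = 7.03e-07) and 3D-EV cells (0.33, adjusted p = 1.15e-06). An uncharacterised lncRNA overlaps Furin in RefSeq, and whether the counting used strand was not stated.

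The 4 latent TGF-beta binding proteins did not move as a block. Ltbp1, whose product binds the propeptides of all the ligands, rose 1.19-fold. Its libraries held 229, 224 and 229 CPM in control cells and 262, 273 and 276 CPM in TGF-beta1 cells. These ranges were well apart (log2 fold change 0.25, SE 0.03, adjusted p = 4.85e-05). With EVs the level stayed in the range of TGF-beta1 cells or just outside it, at 259, 267 and 265 CPM with 2D-EVs and 282, 269 and 268 CPM with 3D-EVs (log2 differences from TGF-beta1 cells -0.04 and 0.02, adjusted p = 0.871 and 0.954). A lncRNA also overlaps Ltbp1.

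Ltbp2, the family member that associates with elastic fibres and does not bind the propeptide, rose most of the family. It stood at 66.3, 64.0 and 63.2 CPM in control libraries and 97.8, 95.9 and 96.9 CPM in TGF-beta1 libraries. The rise was 1.502-fold with no overlap (log2 fold change 0.59, SE 0.04, adjusted p = 8.01e-08). The 2D-EV libraries held 94.5, 99.9 and 90.6 CPM and the 3D-EV libraries 96.9, 97.3 and 94.9 CPM, overlapping the TGF-beta1 range. Relative to TGF-beta1 cells the log2 differences were -0.03 (95% interval -0.11 to 0.05) and -0.01 (-0.09 to 0.07).

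Ltbp3, which binds the propeptides of TGF-beta1 and other ligands, rose slightly and with a wide spread. Control libraries held 561, 506 and 597 CPM and TGF-beta1 libraries 608, 663 and 659 CPM. The lowest TGF-beta1 library was just above the highest control library (1.16-fold, log2 fold change 0.21, SE 0.06, adjusted p = 0.0251). In 2D-EV libraries it was 697, 642 and 582 CPM and in 3D-EV libraries 636, 618 and 664 CPM, so the 2D-EV range reached into that of control cells. The call was lost without control replicate 1 (adjusted p = 0.0543), control replicate 2 (0.114), TGF-beta1 replicate 2 (0.0937) or TGF-beta1 replicate 3 (0.0795), and with robust dispersion (0.0753). RefSeq places part of Ltbp3 over another annotated gene, and reads in a shared part cannot be assigned to either from the counts.

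Ltbp4, whose product binds the TGF-beta1 propeptide and helps assemble elastic fibres, fell. It held 380.2, 323 and 409 CPM in control libraries and 247, 264 and 273 CPM in TGF-beta1 libraries. The groups did not overlap, and the fold was 0.705 (log2 fold change -0.50, SE 0.09, adjusted p = 0.000604). With 2D-EVs it was 296, 287 and 233 CPM and with 3D-EVs 262, 244 and 270.0 CPM, below every control library in both groups. Against TGF-beta1 cells the log2 differences were 0.06 (95% interval -0.13 to 0.24) and -0.02 (-0.20 to 0.17), intervals wider than those of the ligands.

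**Figure D2:**
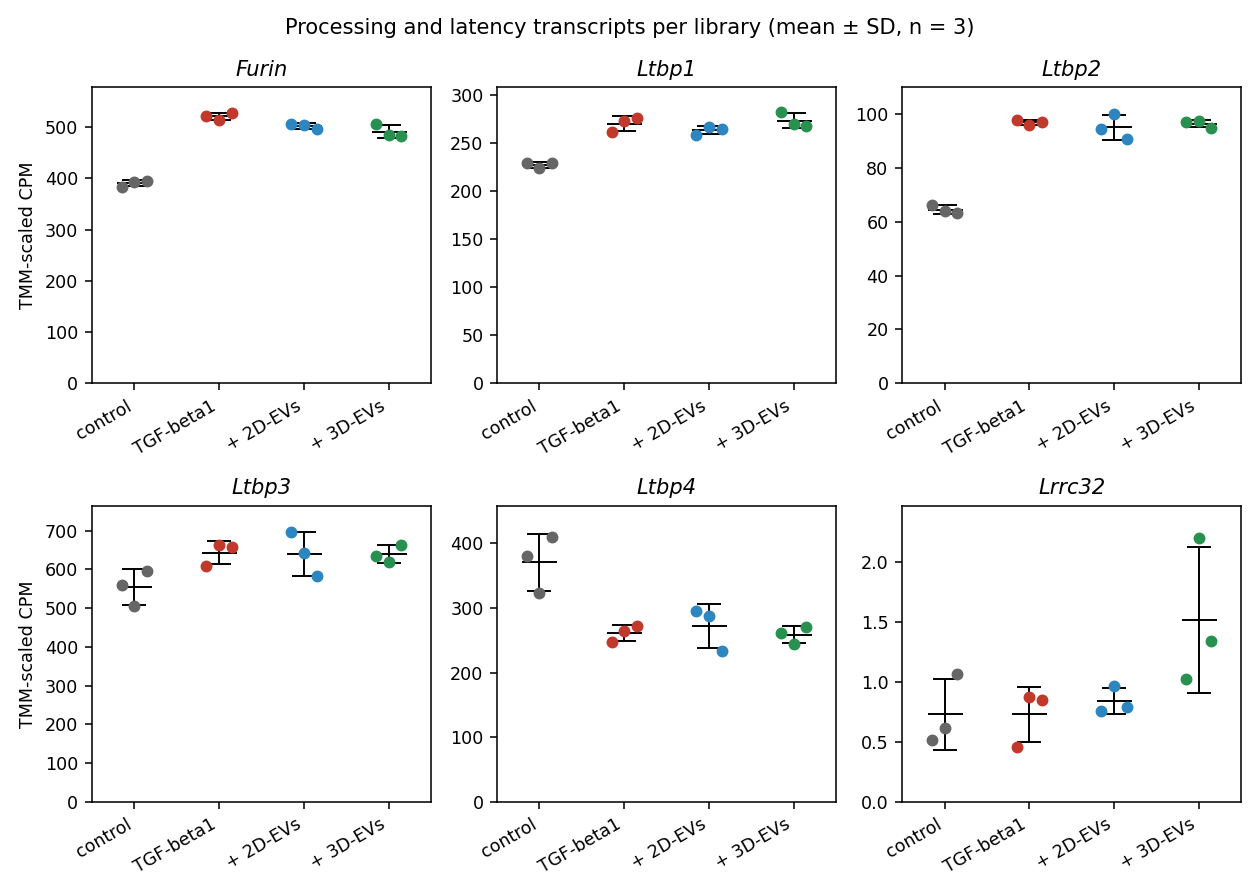
TMM-scaled CPM of Furin, the 4 Ltbp genes and Lrrc32 in each library (points, 3 per group), with the group mean and SD as line and bars. Furin, Ltbp1 and Ltbp2 are higher and Ltbp4 lower in all groups given TGF-beta1 than in control cells, while Ltbp3 and Ltbp4 spread widely within control and 2D-EV cells.

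Ltbp3 and Ltbp4 varied together within groups. Control replicate 2 and 2D-EV replicate 3 were the lowest libraries of their groups for both genes, and also for Eln, the elastin gene (460 CPM against 565 and 577 in control cells, 307 against 381 and 391.8 in 2D-EV cells), and Col1a1, a chain of type I collagen (151 CPM against 181 and 200.01 in control cells, 309 against 403 and 362 in 2D-EV cells). These libraries also had the smallest totals of their groups (33273281 and 32888125 counts). TGF-beta1 replicate 1, with the smallest total of its group (35191827), likewise had the lowest levels of these genes there. The 3D-EV group went the other way. Its replicate 3 had the smallest total (34185568) and the highest Ltbp3 (664 CPM), Ltbp4 (270.0), Eln (397) and Col1a1 (389) of that group. The part of library total in these levels was not tested. Without control replicate 2 the fall of Ltbp4 was 0.59 on the log2 scale (adjusted p = 0.00016) and the rise of Ltbp3 0.15 (adjusted p = 0.114). With both libraries left out, an alternative added after seeing the data, the values were -0.59 (adjusted p = 5.47e-06) and 0.16 (adjusted p = 0.0417).

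The ratio of Ltbp4 to Ltbp3 counts within a library varied less than either gene did. It was 0.667 ± 0.0261 (SD, n = 3) in control cells, with a coefficient of variation of 3.91%, where the levels of Ltbp3 and Ltbp4 had 8.22% and 11.9%. In TGF-beta1 cells the ratio was 0.406 ± 0.00758, in 2D-EV cells 0.424 ± 0.0236 and in 3D-EV cells 0.404 ± 0.0087. The highest value in any group given TGF-beta1 was 0.447 and the lowest control value 0.637. The ratio of Ltbp2 to Ltbp4 counts went from 0.176 ± 0.0221 in control to 0.371 ± 0.0214 in TGF-beta1, 0.352 ± 0.035 in 2D-EV and 0.373 ± 0.0239 in 3D-EV cells.

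**Figure D3:**
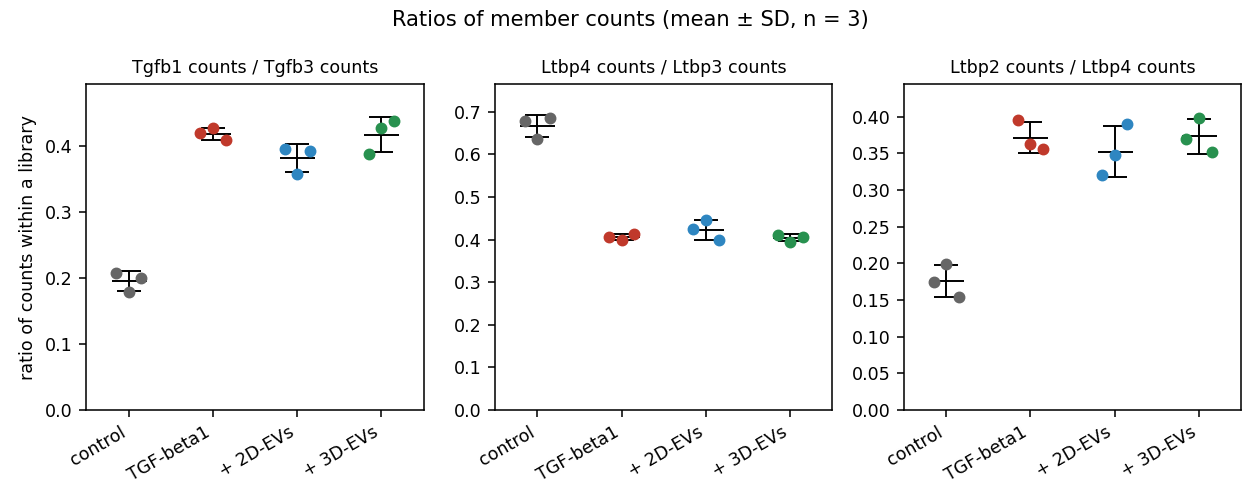
Ratios of counts within a library (y axes, no unit) for Tgfb1 to Tgfb3, Ltbp4 to Ltbp3 and Ltbp2 to Ltbp4 in the 4 groups (points are libraries, line and bars the mean and SD, n = 3). Control libraries are separate from all others in each panel.

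Lrrc32, the surface anchor of latent TGF-beta on other cell types, was barely detected. It held 18, 21 and 38 counts in control libraries, 16, 31 and 31 in TGF-beta1 libraries, 26, 34 and 26 in 2D-EV libraries and 40, 77 and 45 in 3D-EV libraries. As levels, control and TGF-beta1 cells had means of 0.729 ± 0.294 and 0.728 ± 0.232 CPM, with a 95% interval of the log2 fold change from -0.83 to 0.82, too wide to show a moderate change at this depth. The 3D-EV libraries (1.02, 2.19 and 1.34 CPM) were all above the TGF-beta1 libraries (0.460, 0.871 and 0.852 CPM), with a log2 difference of 1.05 (95% interval 0.27 to 1.83) that did not pass (adjusted p = 0.597). Against control cells the difference was 1.05 (adjusted p = 0.0525). It passed by DESeq2 (adjusted p = 0.0332) and without control replicate 3 (0.0279), TGF-beta1 replicate 1 (0.0472) or 3D-EV replicate 1 (0.0338). Without 3D-EV replicate 2, the highest library, it was 0.68 (adjusted p = 0.273). Among markers of the cells known for LRRC32, Foxp3 held at most 5 counts and Pf4 and Emcn 0. The endothelial markers Egfl7 (9.78 to 14.7 CPM) and Tek (1.41 to 2.30 CPM) and the platelet integrin Itga2b (0.955 to 1.68 CPM) were detected in every library. So was the macrophage marker Cd68 (2.76 to 4.13 CPM), listed for cells with abundant Tgfb1. Their part in the Lrrc32 level was not tested.

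The comparisons of the EV groups with TGF-beta1 cells asked whether vesicles moved these genes after the cytokine. Of the 9 genes, 0 passed with 2D-EVs and 0 with 3D-EVs by edgeR, and 0 and 0 by DESeq2 and by limma-voom. Over all genes tested 0.0282% passed with 2D-EVs and 0% with 3D-EVs. At an unadjusted p below 0.05 stood 1 gene with 2D-EVs (Tgfb1) and 3 with 3D-EVs (Tgfb2, Furin, Lrrc32), where 7.1% and 7.24% of all genes tested did. All libraries were separate from those of TGF-beta1 cells, on the lower side, for 2 genes with 2D-EVs (Tgfb1, Furin) and on the higher side for 0, where 6.23% and 6.13% of all genes were. With 3D-EVs 2 genes stood apart on the higher side (Tgfb2, Lrrc32) and 1 on the lower (Furin), where 6.8% and 6.83% did. In absolute log2 fold change the 9 genes had medians of 0.04 and 0.02, and all genes tested 0.07 in both. The genes behind the latter medians were not matched to the 9 by expression level.

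For 3D-EV against 2D-EV cells, 0 of the 9 passed by edgeR, DESeq2 or limma-voom, against 0.00705% of all genes tested by edgeR. At an unadjusted p below 0.05 were 3 genes, Tgfb1 (log2 difference 0.12, 95% interval 0.02 to 0.22), Tgfb2 (0.13) and Lrrc32 (0.85, 0.07 to 1.62), all higher with 3D-EVs, where 6.9% of all genes tested were. For Tgfb3, Furin, Ltbp1 and Ltbp2 the intervals of this difference reached no farther from 0 than 0.12 on the log2 scale (the upper bound of Ltbp1), and for Ltbp3 and Ltbp4 no farther than -0.26 (the lower bound of Ltbp4). Libraries stood apart on the higher side for 4 genes (Tgfb1, Tgfb2, Ltbp1, Lrrc32) and on the lower for 0, where 5.67% and 5.68% of all genes did.

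Against control cells, 8 of the 9 genes passed in 2D-EV cells (6 higher, 2 lower, where 18.6% of all genes tested passed, 10.5% upward and 8.13% downward) and 8 in 3D-EV cells (6 higher, 2 lower, where 23% passed, 12.2% upward and 10.8% downward). Libraries did not overlap with control for 7 genes in 2D-EV cells, where 33.2% of all genes did not, and for 8 genes in 3D-EV cells, where 38% did not (6 of them higher, where 19.4% were). These comparisons share the control libraries with that of TGF-beta1 cells. The log2 fold change of Tgfb1 was 0.61 in 2D-EV and 0.73 in 3D-EV cells, that of Tgfb3 -0.36 and -0.37, that of Ltbp2 0.56 and 0.58, and that of Ltbp4 -0.45 and -0.52. Ltbp3 was the weakest of the calls (0.21 and 0.20, adjusted p = 0.0333 and 0.0302). In 2D-EV cells it was lost with the replicate block (adjusted p = 0.0515), a fit of only these 2 groups (0.06), robust dispersion (0.0933) or without control replicate 1 (0.0708), control replicate 2 (0.149), 2D-EV replicate 1 (0.155) or 2D-EV replicate 2 (0.0846). In 3D-EV cells it was lost with robust dispersion (0.0838) or without control replicate 1 (0.0623), control replicate 2 (0.133), 3D-EV replicate 1 (0.0645), 3D-EV replicate 3 (0.107) or both control replicate 2 and 2D-EV replicate 3 (0.0527), so the rise of Ltbp3 rests on a narrow margin in all 3 comparisons with control.

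**Figure D4:**
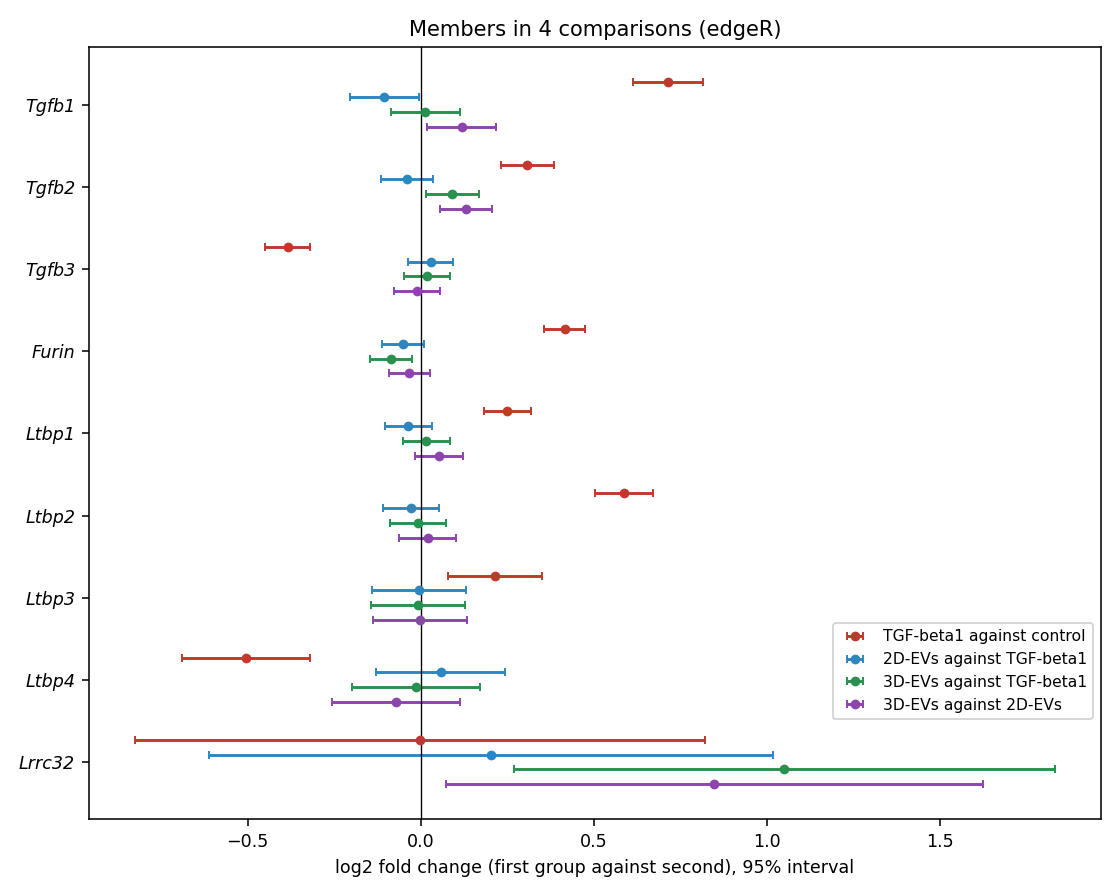
Log2 fold changes (x axis) of the 9 genes in 4 comparisons (colours), with 95% intervals from the edgeR fit that are not adjusted for the number of genes. The intervals of TGF-beta1 against control lie clear of 0 for all genes but Lrrc32, and those of the EV comparisons lie near 0 for all genes but Lrrc32.

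The genes whose pattern over the 12 libraries was most like that of a ligand were found by Pearson's r of log2 CPM among 9531 genes of at least 5 CPM. The r mostly reflects the step between control and the other groups and is given as a description. Nearest to Tgfb1 were Spp1, osteopontin (r = 0.988, 4207 CPM in control and 6374 in TGF-beta1 cells), Tp53inp2 (0.985) and Cyp2s1, a cytochrome P450 (0.983). Nearest to Tgfb2 were Itgav, the integrin alpha v chain (0.983, 524 and 631 CPM), Ppip5k1 (0.975) and Ttc39c (0.975). Nearest to Tgfb3 were Arhgap18 (0.990), Plagl1, a zinc finger factor (0.988, 69.3 and 25.03 CPM), and Slc16a1, a lactate transporter (0.988). At r above 0.95 there were 151 genes for Tgfb1, 29 for Tgfb2 and 74 for Tgfb3.

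Other genes of ligand processing and release were read from lists in the same comparison of TGF-beta1 with control cells, where 22% of all genes tested passed and the median log2 fold change of all genes was -0.005. Of 9 tested convertases and secretion partners, 6 rose and 0 fell (median 0.19). Tgm2, a transglutaminase that crosslinks latent complexes to the matrix, rose from 4.17 to 7.36 CPM (log2 fold change 0.82). The furin relatives Pcsk6 (0.33, adjusted p = 0.000129) and Pcsk7 (0.21, adjusted p = 0.0447), named after their values were seen, also rose. The folding enzymes P4hb and Pdia3 were also among the risers. Of 15 tested activators, 7 rose and 1 fell (median 0.24). Thbs1, thrombospondin-1, which can free latent TGF-beta, rose from 1632 to 2456 CPM (0.59), and Itgb5, an integrin beta chain that pairs with alpha v, from 770.0 to 1144 CPM (0.57). Mmp2, gelatinase A, fell from 34.7 to 24.1 CPM (-0.52).

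Genes of matrix docking went both ways. Of 14 tested, 4 rose and 3 fell (median 0.03). Fbln2, which encodes the fibrillin partner fibulin-2, rose from 44.2 to 164 CPM (log2 fold change 1.89), and Fbn1, fibrillin-1, from 0.808 to 1.60 CPM (0.98). Fbn1 held only 24 to 34 counts in control and 55 to 60 in TGF-beta1 libraries (edgeR adjusted p = 0.0322). Against control it did not pass in 2D-EV cells (0.38, edgeR adjusted p = 0.473) or 3D-EV cells (0.44, adjusted p = 0.366). Adamts1, a matrix protease, fell from 11.9 to 7.37 CPM (-0.69) and Eln by 0.54. Of 11 tested secreted binders of active ligand, 5 rose and 0 fell (median 0.09), with A2m, a protease inhibitor that also binds growth factors, at 79.7 against 51.8 CPM (0.62) and Htra3, a secreted protease, at 3.498 against 2.45 CPM (0.51). Htra3 passed only narrowly (edgeR adjusted p = 0.0497), and its libraries overlapped between the groups. Against control it did not pass in 2D-EV cells (0.13, edgeR adjusted p = 0.681) or 3D-EV cells (0.28, adjusted p = 0.303). Of 11 tested other ligands of the superfamily, 3 rose and 1 fell (median -0.006), among them Bmp6 (0.36), Bmp1, which despite its name is a procollagen protease and stands in 2 of the lists (0.34), and Bmp4 (-0.37).

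Receptors and Smads also divided, with 5 risers and 5 fallers of 16 tested (median -0.04). Eng, the accessory receptor endoglin, rose from 3.27 to 5.01 CPM (log2 fold change 0.62), and Pmepa1, an inhibitor of Smad activation, from 144 to 209.8 CPM (0.54). Against control Eng did not pass in 2D-EV cells (0.41, edgeR adjusted p = 0.138) or 3D-EV cells (0.48, adjusted p = 0.0702). Tgfbr3, betaglycan, which presents TGF-beta2 to the signalling receptors, fell from 20.2 to 12.5 CPM (-0.69), and Bambi, a decoy receptor, from 16.3 to 12.5 CPM (-0.38). Of 18 tested targets of TGF-beta signalling, 11 rose and 4 fell (median 0.25). Pmepa1, Smad7 and Skil stand in this list and in that of receptors and Smads, and Fn1 also in that of matrix docking. The counts of these lists are therefore not independent. Col1a1 rose from 177 to 355 CPM (1.00). Id3 (-0.42), an inhibitor of basic helix-loop-helix factors, and Klf10 (-0.41), a zinc finger factor, fell. With 2D-EVs against TGF-beta1 cells, 2 of these 18 targets fell, Ccn2 (log2 fold change -0.23, SE 0.03, adjusted p = 0.00238) and Acta2 (-0.25, adjusted p = 0.0102, named after its values were seen), and 0 rose. Of all genes tested 0.0282% passed there. Ccn2 remained above control in 2D-EV cells (log2 fold change 0.29, edgeR adjusted p = 2.05e-06). With 3D-EVs 0 of the 18 passed. In the other 6 lists 0 genes passed in either EV comparison.

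**Figure D5:**
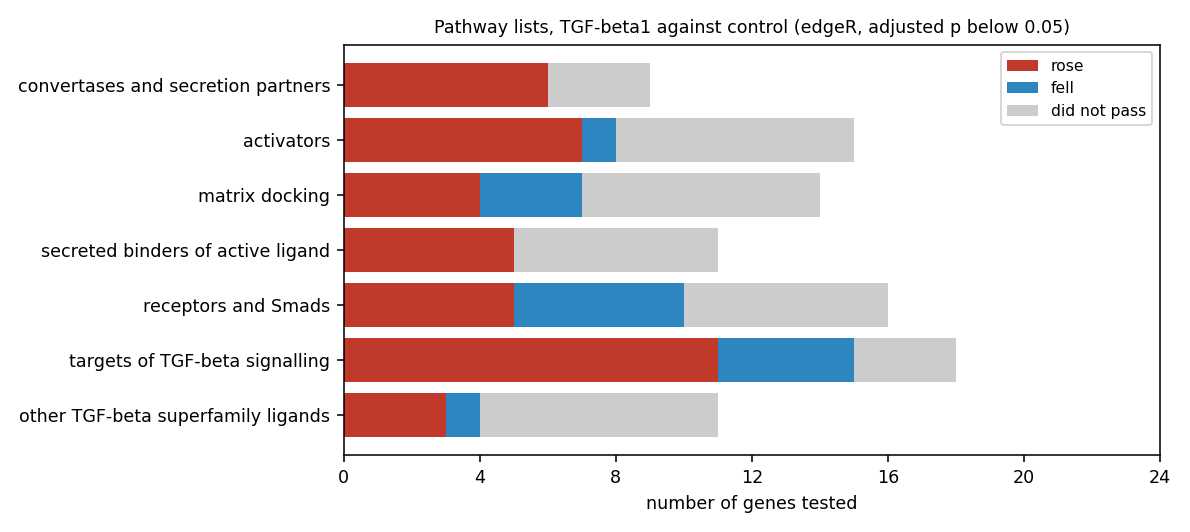
Number of tested genes (x axis) in each of 7 pathway lists (y axis) that rose, fell or did not pass in TGF-beta1 against control cells by edgeR. Convertases and secreted binders hold no fallers, while receptors and Smads divide evenly.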

How the data were processed

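Gene expression was measured by RNA-seq of total RNA in 12 libraries. The authors deposited raw counts for each gene, as integers. Per the submitters' processing notes the authors used fastp, HISAT2, StringTie and DESeq2 with build mRatBN7.2. Versions, counting settings, strand handling and annotation were not stated. The value 1 fills 1514 cells of the table and the value 2 fills 5687. The 12 tables per library were identical to the joint table.

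The analysis used edgeR 4.0.16 under R 4.3.3: filterByExpr (minimum count 10, 14184 genes kept), TMM factors, a fit of 4 group means over all libraries and the quasi-likelihood F-test for 6 comparisons, with Benjamini-Hochberg adjustment over all genes tested. The SE is the absolute log2 fold change divided by the square root of F. Libraries within groups differed by 6.56 to 10.4 times the counting variance. Depth is in the report. The fit was tested on counts simulated from the control means, for TGF-beta1 against control. That simulation changed 200 of 13914 genes, where 3124 of 14184 passed in the data. Its rates may therefore differ from those of the real fit, and the EV comparisons were not simulated. The fit called 48% of 1.25-fold changes in the right direction, 84% of 1.5-fold and 90% of 2-fold changes. Of its calls, 3.61% were false. Small changes can therefore be missed.

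The labels do not name separate cultures, so p-values reflect variation among libraries that could be technical. Members and lists were chosen with earlier results of these data known. Besides the members, up to 2 risers and 2 fallers per list by log2 fold change (mean of at least 1 CPM) were named, with the top riser and faller by p in the EV comparisons, and 3 genes nearest each ligand; some genes that this rule picks are not reported here. Alternatives were DESeq2 1.42.0, limma-voom 3.58.1, RLE and upper-quartile factors, no filter, 2-group fits, robust dispersion, a replicate block and leaving out libraries. Residuals of the 18 pairs of libraries with the same number correlated by -0.067 to 0.0448, so numbers were not used to pair samples.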

Additional observations from a re-analysis of the deposited data

Results flagged for a closer look

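Ccn2, a matricellular growth factor and target of the pathway, responded differently to the vesicle preparations: its log2 fold change in 3D-EV against 2D-EV cells was 0.24 (SE 0.03, adjusted p = 0.00189, edgeR). Its level was 2832, 2765 and 2871 CPM in control cells and 4115, 4075 and 3990 CPM in TGF-beta1 cells. It was 3385, 3438 and 3530 CPM in 2D-EV cells and 4067, 4139 and 4012 CPM in 3D-EV cells. It was the 1 gene of 14184 that passed in this comparison, and 0 of the 9 ligand and latency genes did.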

How the results depend on the processing

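Over 21 alternatives, 1109 of 1134 values of the 9 genes kept their side of the threshold, 18 lost a call (all Ltbp3), 7 gained one (all Lrrc32 in 3D-EV against control cells) and 0 changed direction after a call. Of the 623 values that passed under neither fit, 33 changed sign. The number of the 9 genes called stayed at 7 to 8 in TGF-beta1 against control, 7 to 8 in 2D-EV and 7 to 9 in 3D-EV against control cells, and at 0 in the other comparisons. The median log2 fold change of all genes lay no farther than 0.0168 from 0 in any fit and comparison.

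Counts of all genes called in the EV comparisons depended on the tool. For 2D-EV against TGF-beta1 cells they were 4 in edgeR, 56 by DESeq2, 9 by limma-voom, 14 with no filter, 7 in the 2-group fit, 17 with robust dispersion, 9 without control replicate 2 and 2D-EV replicate 3, and 1 to 6 without single libraries. For 3D-EV against TGF-beta1 cells they were 0 in edgeR, 13 by DESeq2 and 0 to 2 without single libraries. For 3D-EV against 2D-EV cells they were 1 in edgeR, 21 by DESeq2, 2 by limma-voom, 8 with no filter, 2 in the 2-group fit, 9 with robust dispersion, 3 without both libraries and 1 to 4 without single ones. The cause was not tested. With the replicate block this last count was 2, Ltbp3 in 2D-EV against control cells lost its call (adjusted p = 0.0515) and Lrrc32 in 3D-EV against control cells gained one (0.0406); it changed no other call of the 9 genes. By residuals, the best match shared the replicate number for 5 of 12 libraries. Depth limits Lrrc32, with 16 to 77 counts.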
